A study of Mus musculus with 10 samples.

Results

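The 10 genes described here encode proteins of the intercalated disc, the end-to-end contact between heart muscle cells, and of its gap junctions. They are the connexin genes Gja1, Gja5 and Gjc1, the desmosomal genes Dsg2, Dsc2, Dsp, Pkp2 and Jup, and the adherens junction genes Cdh2 and Ctnna3. They were taken by gene symbol from the 19942 symbols of the array. The rule used no measured value, but the genes were proposed with earlier results of these data known. They had 11 of the 26423 probes, since Pkp2 had 2. All 11 probes were marked as found on 10 of 10 arrays and all passed the filter on low values, so that all 10 genes were among the 16113 genes tested.

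RNA came from the left ventricle of male C57BL/6J mice aged 8 weeks, subjected to transverse aortic banding (TAB), a constriction of the aortic arch that imposes a pressure overload on the left ventricle, or to a sham operation. Tissue was taken early after surgery, on day 3, day 5 or day 7, and later, on day 14 or day 28, with 1 sample per operation and day, which gave 5 TAB and 5 sham samples. All were of the same strain, and the labels give no transgene. A label of the TAB sample titled day 14 gives 15 days, and the number of mice behind a sample is not stated in the sources used here. The days therefore served as the replicates, and the p-values measure the spread between these samples only.

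Neighbouring cardiomyocytes are held together and coupled electrically at the intercalated disc. Gap junctions are channels built from connexins that let current pass between cells. Desmosomes join the intermediate filaments of the cells through the cadherins desmoglein and desmocollin and a plaque of desmoplakin, plakophilin and plakoglobin, while adherens junctions join the actin filaments through N-cadherin and the catenins. In the adult mammalian heart the desmosomal and adherens proteins are partly mixed in one structure, the area composita, and inherited loss of desmosomal proteins is known as a cause of arrhythmogenic cardiomyopathy.

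The transcripts of both desmosomal cadherins among the 10 genes, Dsg2 and Dsc2, were lower after banding, and those of the other 8 genes did not pass the test. Averaged over the 5 days, Dsg2 stood at 61.7% and Dsc2 at 64.9% of the sham level. In TAB the Dsc2 signal was near the detection limit of the arrays, so its percentage is approximate. The calls of both genes depended on the days included, as most calls over all genes did. Without day 3, day 5 or day 7 neither gene passed. In these fits the genes called lower over the whole array fell from 1268 to 1, 12 and 2. The mean log2 ratios there were -0.73, -0.53 and -0.68 for Dsg2 and -0.62, -0.59 and -0.61 for Dsc2. The Dsg2 call depended on the normalization too, since only Dsc2 passed when the arrays were quantile normalized within each operation, as the study's methods word it. No member was called higher. The calls came from limma with the day as a block, with Benjamini-Hochberg adjustment over all 16113 genes and a threshold of 0.05, and log2 ratios are given as TAB over sham. The 2 members called lower stand against a background in which 17.1% of all genes were called, 7.87% lower and 9.19% higher, and 2 of 10 called in either direction is near that share, so the count is no result about the genes as a set. Of the calls over all genes, 53.9% were higher, and 67.6% were with median scaling only. The median of the 10 mean log2 ratios was -0.02, against -0.03 over all genes.

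The arrays responded to banding as the labels state. The natriuretic peptide genes Nppa and Nppb had mean log2 ratios of 1.81 and 1.67. The skeletal actin gene Acta1, which is re-expressed in the overloaded ventricle, had 1.76, and all were called higher. The Nppa and Nppb ratios were lowest at day 14, at 1.12 and 0.17. Myh7, also chosen for this check, was not among the gene symbols of the array. Cardiomyocyte markers were found on all 10 arrays. Each array had between 40.2% and 47.3% of its spots not found. The deposited detection p-value was under 0.05 at 18.8% to 23.5% of the spots on 8 arrays but at 38.6% and 38.0% on the sham arrays of days 7 and 28. In tissue RNA of this kind, fewer cells of a type and less RNA per cell cannot be told apart.

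**Figure D1:**
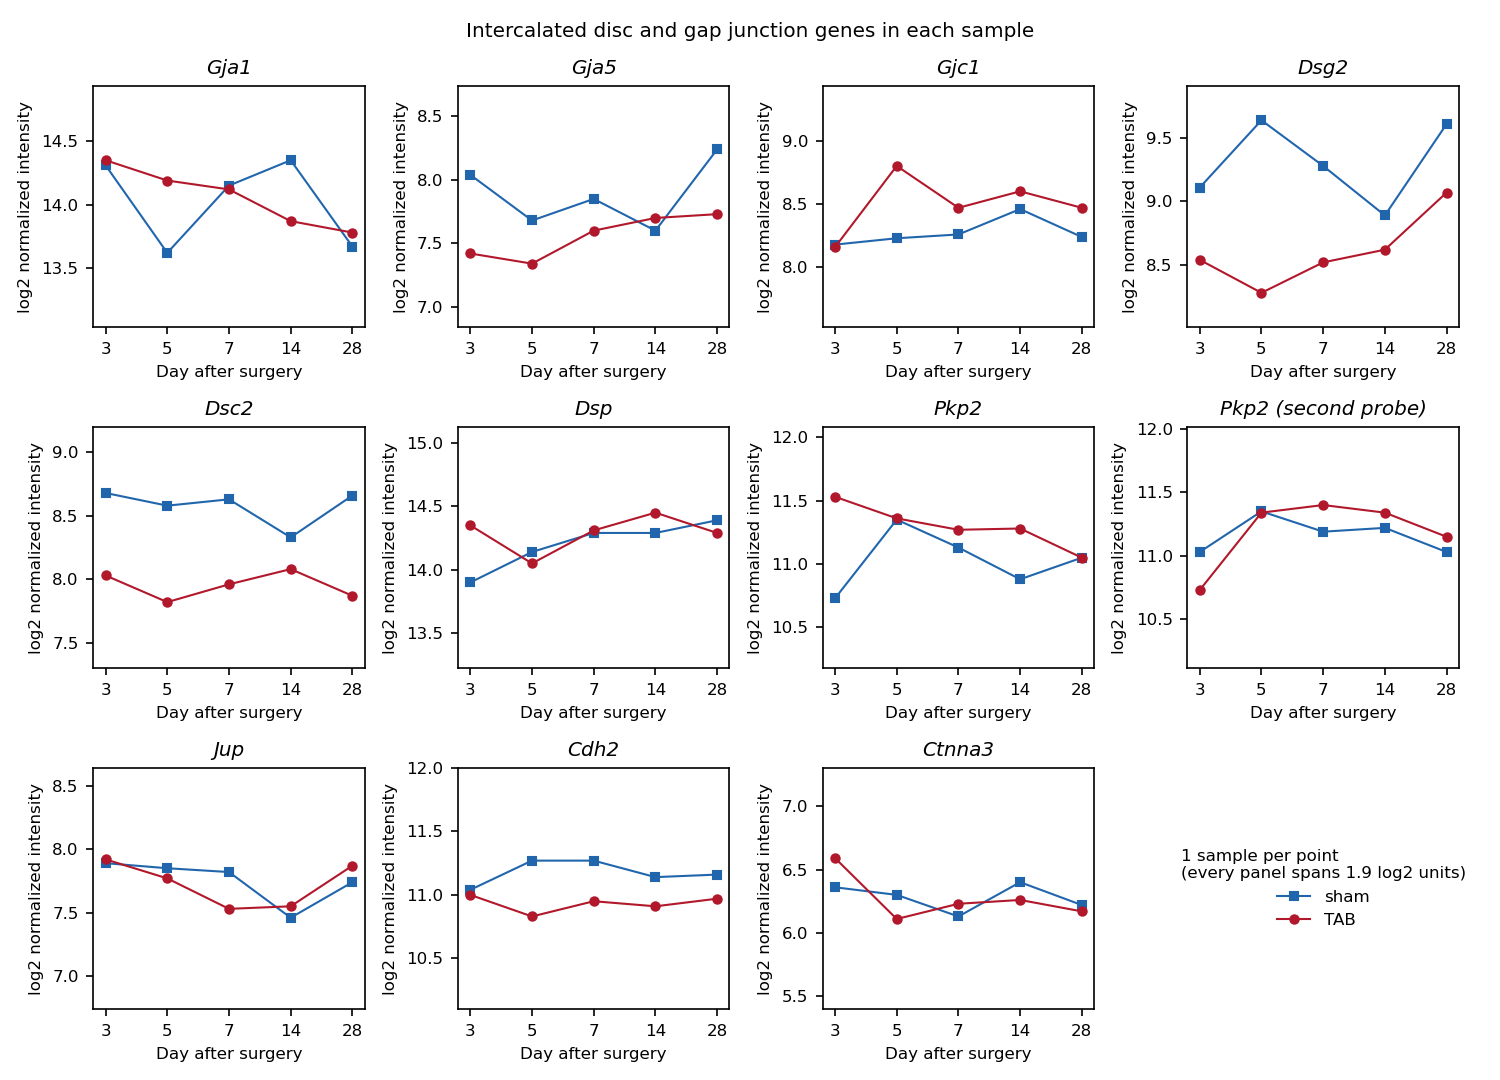
log2 normalized intensity (vertical axis) of the 11 probes at each day after surgery (horizontal axis), with 1 sample per point, TAB as red circles and sham as blue squares. Every panel spans the same number of log2 units, levels are not comparable between panels, and the TAB points of Dsc2 and Cdh2 lie below all of their sham points.

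Desmoglein 2, encoded by Dsg2, is the desmoglein of heart muscle and reaches across the gap between cells to its partner. Its log2 normalized intensity in the TAB samples was 8.54 at day 3, 8.28 at day 5, 8.52 at day 7, 8.62 at day 14 and 9.07 at day 28. In the sham samples of the same days it was 9.11, 9.64, 9.28, 8.89 and 9.61. TAB was below sham on each of the 5 days, although the groups overlapped, because the TAB sample of day 28 was above the sham sample of day 14. The log2 ratios were -0.57, -1.36, -0.75, -0.27 and -0.53 in the order of the days, so that the difference was widest at day 5, when the sham sample was at its highest and the TAB sample at its lowest. The group means were 8.61 ± 0.29 in TAB and 9.30 ± 0.32 in sham (SD, n = 5 each). The mean log2 ratio was -0.70 (SE 0.17, 95% confidence interval -1.12 to -0.28, limma adjusted p = 0.0438).

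The Dsg2 call lay close to the threshold. The adjusted p ranged from 0.00943 to 0.127 over 17 alternative analyses, and it passed in 9 of them, whereas the mean log2 ratio was below 0 in all 17 and lay between -0.80 and -0.53. Leaving out any 1 of the days ended the call. The mean log2 ratios and limma adjusted p-values were -0.73 and 0.107 without day 3 and -0.53 and 0.093 without day 5. They were -0.68 and 0.127 without day 7, -0.80 and 0.0605 without day 14, and -0.74 and 0.0659 without day 28. Genes called lower over the whole array also fell, to 1, 12, 2 and 382 without day 3, 5, 7 and 14, but not without day 28. With median scaling in place of quantile normalization the values were -0.61 and 0.0674, with quantile normalization within each operation -0.61 and 0.0597, and with probes under the floor kept at the floor value -0.70 and 0.0814.

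Desmocollin 2, encoded by Dsc2, is the cardiac desmocollin and pairs with desmoglein in the same junction. Its log2 normalized intensity in TAB was 8.03, 7.82, 7.96, 8.08 and 7.87 from day 3 to day 28. In sham it was 8.68, 8.58, 8.63, 8.33 and 8.66. All 5 TAB values were below all 5 sham values, and both groups varied little, with means of 7.95 ± 0.11 in TAB and 8.58 ± 0.14 in sham (SD, n = 5 each). The log2 ratios were -0.65, -0.75, -0.66, -0.25 and -0.79, with the narrowest difference at day 14, as for Dsg2. The mean was -0.62 (SE 0.12, 95% confidence interval -0.92 to -0.33, limma adjusted p = 0.0268).

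The largest difference between any 2 sham samples was 0.36 for Dsc2, and the TAB ratio was larger than this in size on 4 of the 5 days. For Dsg2 the largest sham difference was 0.75, and the ratio was larger on 2 days. The Dsc2 call held in 13 of the 17 alternative analyses, with adjusted p-values from 0.00434 to 0.0927 and mean log2 ratios between -0.72 and -0.52. It was lost when probes under the floor were kept at the floor value. It was also lost when day 3, day 5 or day 7 was left out, with limma adjusted p-values of 0.0867, 0.0873 and 0.0927. Without those days few genes of the whole array were called, with 1, 12 and 2 called lower.

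**Figure D2:**
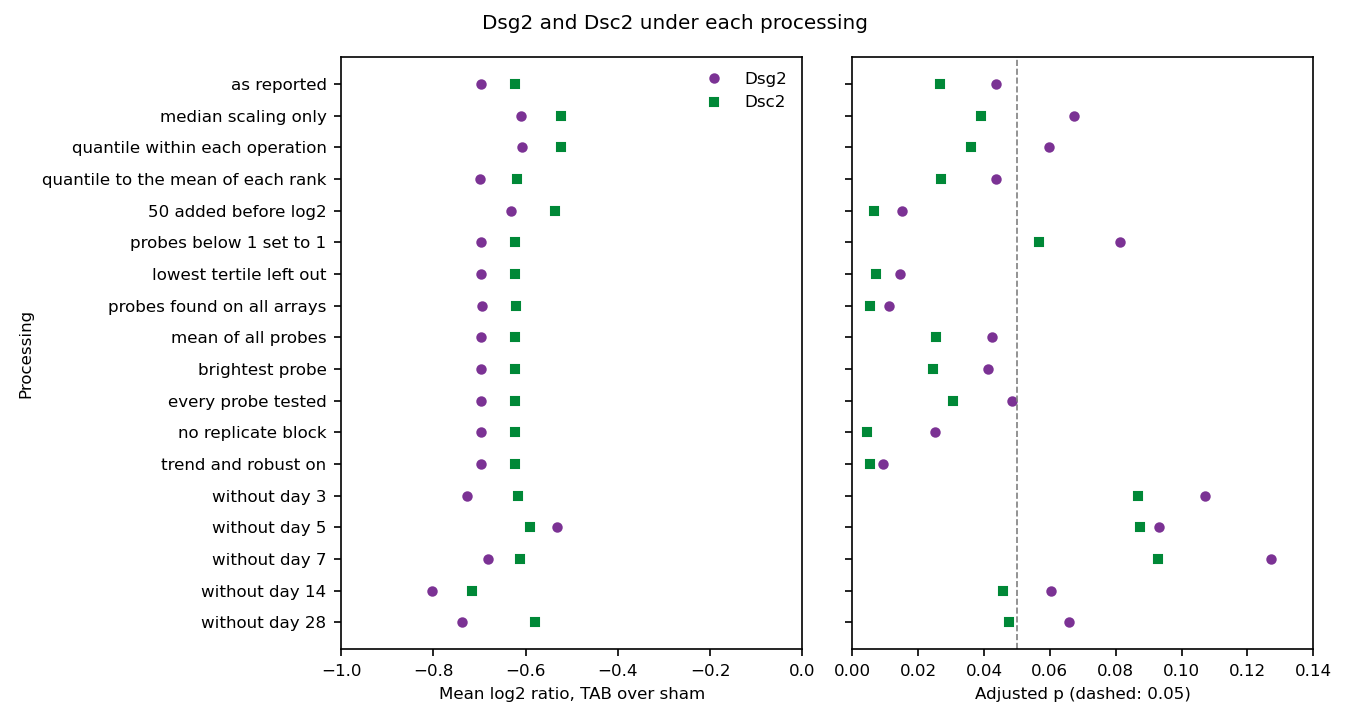
Mean log2 ratio of TAB over sham (left) and its adjusted p (right) for Dsg2 (purple circles) and Dsc2 (green squares), as reported and under each of the 17 alternatives named on the vertical axis. The mean ratios lie between -0.80 and -0.52 throughout, whereas the adjusted p-values fall on both sides of the dashed threshold of 0.05.

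The signals of both cadherin probes were modest. The raw intensity ranged from 274 to 940 for Dsg2 and from 191 to 482 for Dsc2. The deposited detection p-value was under 0.05 on 4 of 5 TAB and 5 of 5 sham arrays for Dsg2, and on 0 of 5 TAB and 4 of 5 sham arrays for Dsc2, so that the TAB level of Dsc2 was near the array's own detection limit. Of the 4 sham arrays, days 7 and 28 are those on which more spots passed in general. Dsg2 and Dsc2 lie in one cadherin cluster in the RefSeq annotation, where Dsc3 is next to Dsc2 and Cdh2 next to Dsc3. The tested genes of that stretch besides the members were Dsc3 with a mean log2 ratio of -0.29 (limma adjusted p = 0.629), Ttr, which encodes transthyretin, with 0.30 (adjusted p = 0.513) and B4galt6 with 0.02 (adjusted p = 0.954).

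The 3 members of the desmosomal plaque, Dsp, Pkp2 and Jup, did not pass the test. Desmoplakin, encoded by Dsp, links the plaque to desmin filaments. The log2 normalized intensity of Dsp was 14.35, 14.05, 14.31, 14.45 and 14.29 in TAB and 13.90, 14.14, 14.29, 14.29 and 14.39 in sham at the 5 days in order. The groups overlapped, and TAB was higher on 3 days and lower on 2. The mean log2 ratio of Dsp was 0.09 (SE 0.12, 95% confidence interval -0.21 to 0.39, limma adjusted p = 0.646). The probe was bright, with raw intensities of 15474 to 25992, below the top of the scanner range.

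Plakophilin 2, encoded by Pkp2, is an armadillo protein of the plaque. The probe that represented it read 11.53, 11.36, 11.27, 11.28 and 11.05 in TAB and 10.73, 11.35, 11.13, 10.88 and 11.05 in sham, with overlapping groups. Its mean log2 ratio was 0.27 (SE 0.15, 95% confidence interval -0.10 to 0.64, limma adjusted p = 0.258), and the ratio of 0.80 at day 3 was larger than any difference between 2 sham samples, the widest of which was 0.62. The second Pkp2 probe read 10.73 in TAB and 11.03 in sham at day 3, a log2 ratio of -0.30. Its mean log2 ratio was 0.03 (SE 0.12), so that the probes opposed each other at day 3 and the higher value there rests on 1 probe.

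Plakoglobin, encoded by Jup, is shared by desmosomes and adherens junctions. At the 5 days in order, it read 7.92, 7.77, 7.53, 7.55 and 7.87 in TAB and 7.89, 7.85, 7.82, 7.46 and 7.74 in sham, in log2 normalized intensity. The groups overlapped almost fully, and the mean log2 ratio was -0.03 (SE 0.11, 95% confidence interval -0.29 to 0.24, limma adjusted p = 0.888). The Jup probe was dim, with a detection p-value under 0.05 on 0 TAB arrays and on 2 sham arrays, those of days 7 and 28.

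On each of the 5 days the log2 ratios of both Dsg2 and Dsc2 were below those of Dsp, Pkp2 and Jup. At day 5 the higher of the 2 cadherin ratios was -0.75 and the lowest of these 3 plaque ratios was -0.09. At day 14 the values were -0.25 and 0.09, and at day 7 they were -0.66 and -0.29. Of other plaque genes on the array, Pkp4 (plakophilin 4) had ratios of -0.18, -0.72, -0.44, -0.17 and 0.11, above both cadherins on each day, but others did not share this order. Pkp1 (plakophilin 1) had ratios of -0.89, -1.49, -1.09, -0.49 and -0.61, below both cadherins on 4 of the 5 days. Ppl (periplakin) had -1.54, -2.27, -1.18, -0.02 and -1.0, also below both on 4 days. No difference between cadherins and plaque genes was tested.

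**Figure D3:**
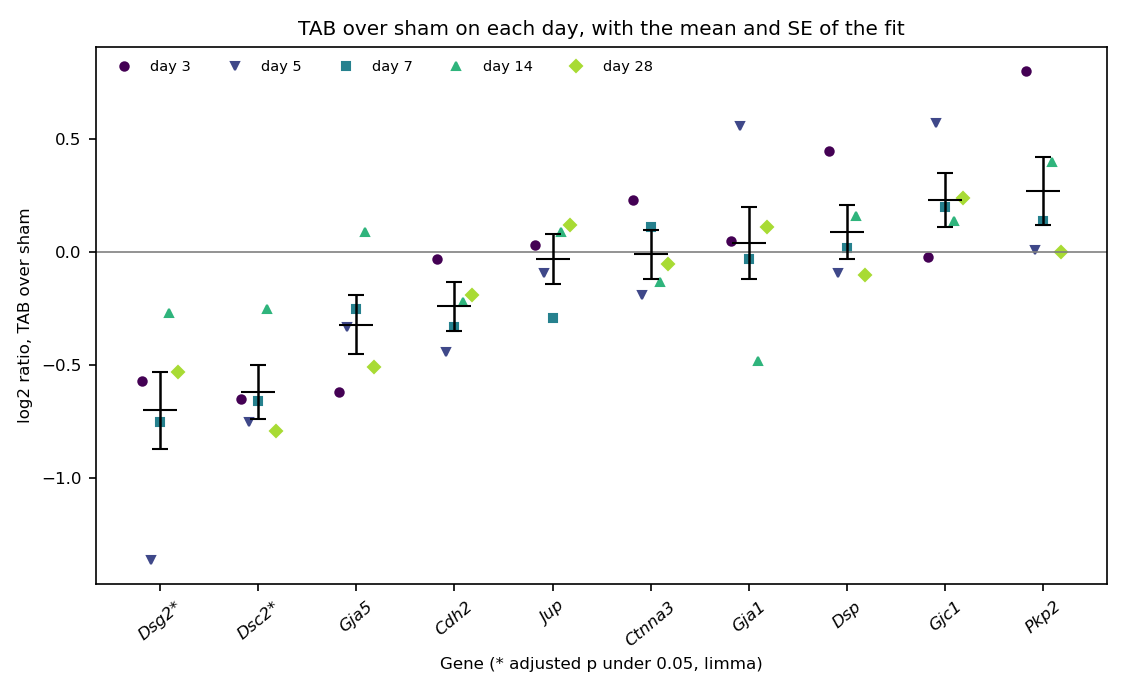
log2 ratio of TAB over sham (vertical axis) for each of the 10 genes (horizontal axis, in order of the mean), with a symbol for each day and a black bar with its SE for the mean of the fit. Dsg2 and Dsc2, marked with an asterisk, lie below 0 on all 5 days, as does Cdh2, while each of the other 7 genes has days on both sides of 0.

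N-cadherin, encoded by Cdh2, is the classical cadherin of the cardiac adherens junction. On the log2 scale of normalized intensity, it read 11.00, 10.83, 10.95, 10.91 and 10.97 in TAB and 11.04, 11.27, 11.27, 11.14 and 11.16 in sham. All 5 TAB values were below all 5 sham values, by a narrow margin, with group means of 10.93 ± 0.07 and 11.18 ± 0.10 (SD, n = 5 each). The mean log2 ratio was -0.24, or 84.4% of sham (SE 0.11, 95% confidence interval -0.51 to 0.02), and did not pass (limma adjusted p = 0.16). It was nearer to none, at -0.11, both with median scaling and with quantile normalization within each operation. The ratio at day 3 was -0.03, and those of days 5 and 7, -0.44 and -0.33, were larger in size than any difference between 2 sham samples.

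Among the 10 genes, 2 had groups that did not overlap, Dsc2 and Cdh2, both lower in TAB. Of all genes, 7.76% did not overlap with TAB below sham and 9.99% with TAB above sham, a direction in which no member fell, so that 2 of 10 is again a small count against that background. With median scaling, or with quantile normalization within each operation, the count was 1.

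The alpha-T-catenin gene Ctnna3 encodes a catenin of the area composita that binds plakophilin 2. The log2 normalized intensity of Ctnna3 lay between 6.11 and 6.59 in TAB and between 6.13 and 6.40 in sham, and its raw intensity between 61 and 92. No array gave it a detection p-value under 0.05, so its mean log2 ratio of -0.01 (SE 0.11, limma adjusted p = 0.972) carries little information on the transcript.

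Connexin 43, encoded by Gja1, is the main connexin of the working ventricle. Its log2 normalized intensity was 14.35, 14.19, 14.12, 13.87 and 13.78 in TAB and 14.31, 13.62, 14.15, 14.35 and 13.67 in sham. The groups overlapped, and the sham samples alone spanned 0.72. The log2 ratio was 0.56 at day 5, where the sham sample was low, and -0.48 at day 14, where the sham sample was high. The mean was 0.04 (SE 0.16, 95% confidence interval -0.35 to 0.44, limma adjusted p = 0.876). None of the daily Gja1 ratios was larger in size than the widest difference between 2 sham samples, and the interval leaves room for a change of either sign.

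Connexin 40, encoded by Gja5, is the connexin of atrial muscle, of the ventricular conduction fibres and of arterial endothelium. The probe read 7.42, 7.34, 7.60, 7.70 and 7.73 in TAB and 8.04, 7.68, 7.85, 7.60 and 8.24 in sham, in log2 normalized intensity. TAB was lower on 4 of the 5 days, at ratios of -0.62, -0.33, -0.25 and -0.51, and higher by 0.09 at day 14. The groups overlapped, and the mean log2 ratio of -0.32, or 80.0% of sham, did not pass (SE 0.13, limma adjusted p = 0.144). The detection p-value of the Gja5 probe was under 0.05 on 0 TAB arrays and on the sham arrays of days 7 and 28, those with more spots passing.

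Markers of the tissues that carry Gja5 were set beside it. The 4 atrial marker genes had mean log2 ratios below 0, from -1.20 to -0.40 with a median of -0.86, and none was called. The lowest of these ratios is that of Bmp10, which was found on 0 TAB and 3 sham arrays, so that its size is not well measured. At day 14 the ratios of Myl7, Sln and Myl4 were -2.24, -2.76 and -1.56. On the other days they lay between -0.60 and -0.23 for Myl7, -0.76 and -0.26 for Sln, and -0.50 and 0.17 for Myl4. Day 14 was also the day on which Gja5 was not lower. The summed normalized intensity of the 4 atrial markers was 2560 to 4770 in TAB and 4410 to 9990 in sham. Among the sham samples, that of day 14 had the highest level of the atrial light chain gene Myl7, 11.91, and the lowest Gja5 level, whereas that of day 28 had the second highest Myl7 level, 11.30, and the highest Gja5 level. Among the TAB samples, that of day 28 was the highest for both genes, with 10.81 for Myl7. Of the 5 conduction system markers tested, Cntn2, which encodes contactin 2 of Purkinje fibres, was called lower (mean log2 ratio -0.88, limma adjusted p = 0.0235). The Cntn2 probe was dim, at normalized intensities of 63.3 to 103 in TAB and 127 to 174 in sham. The other 4 markers did not pass, of which Hcn4 and Etv1 were found on no array. The summed conduction markers were at 2070 to 2200 in TAB and 1610 to 3060 in sham. The 5 arterial endothelial markers had a median of -0.03 with none called. The part of these tissues in the Gja5 values was not tested.

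Connexin 45, encoded by Gjc1, is the connexin of nodal and early heart tissue. Its log2 normalized intensity was 8.16, 8.80, 8.47, 8.60 and 8.47 in TAB and 8.18, 8.23, 8.26, 8.46 and 8.24 in sham. TAB was higher on 4 days, with a ratio of 0.57 at day 5 that exceeded every difference between 2 sham samples. The mean log2 ratio was 0.23 (SE 0.12, limma adjusted p = 0.231), and the groups overlapped. The detection p-value of the Gjc1 probe was under 0.05 on 3 TAB and 3 sham arrays, and not on the sham array of day 5.

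The 5′ regions of the members were searched in the RefSeq promoter windows of build GRCm38.p6, which held 5 of the 10 genes, namely Gja1, Gja5, Dsp, Jup and Ctnna3. The windows of Gja1 and Gja5 are shown because both encode cardiac connexins that are expressed in different parts of the heart. The Gja1 window is chr10:56377050-56377349 and the Gja5 window chr3:97032152-97032451, each of 300 bases on the plus strand around the start of the gene. Capitals mark matches to the motifs searched on both strands.
Gja1: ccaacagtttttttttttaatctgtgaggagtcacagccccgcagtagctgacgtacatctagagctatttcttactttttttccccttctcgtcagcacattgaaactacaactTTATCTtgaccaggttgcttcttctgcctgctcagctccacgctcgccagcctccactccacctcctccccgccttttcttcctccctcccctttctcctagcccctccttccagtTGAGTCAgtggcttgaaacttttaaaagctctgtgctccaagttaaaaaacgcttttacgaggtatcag
Gja5: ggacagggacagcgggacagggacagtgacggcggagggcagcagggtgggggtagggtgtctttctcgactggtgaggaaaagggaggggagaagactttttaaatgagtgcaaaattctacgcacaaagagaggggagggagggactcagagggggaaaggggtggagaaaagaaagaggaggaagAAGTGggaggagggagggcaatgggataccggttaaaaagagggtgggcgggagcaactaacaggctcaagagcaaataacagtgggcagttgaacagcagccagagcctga
The motifs searched were AGATAA, bound by zinc finger factors of the heart, and AAGTG, bound by the homeodomain factor Nkx2-5. The binding letters GTGTGA of T-box factors, which had no match in either window, and TGAGTCA of the AP-1 dimers were searched as well. Further motifs were TATAAA of the core promoter, the palindrome CACGTG of basic helix-loop-helix factors, and the CArG box by name, none of which was matched in either window. The Gja1 window held 1 AGATAA match and 1 TGAGTCA match, and the Gja5 window held 1 AAGTG match. Of all 32851 windows in the table, AGATAA was matched in 11.2%, TGAGTCA in 5.2%, AAGTG in 46.4%, GTGTGA in 14.5%, TATAAA in 13.6%, CACGTG in 7.15% and the CArG box in 1.63%. These matches describe the letters only.

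The daily ratios and the stage of the response were examined next. A gene counted as differentially expressed on a given day if its ratio lay beyond 2 SDs of the ratios of that day, which gave log2 thresholds of 1.78, 1.93, 1.75, 1.48 and 1.38 from day 3 to day 28. No member passed on any day, while 5.21%, 5.52%, 5.66%, 5.67% and 5.88% of all genes did. The value nearest to its threshold was the Dsg2 ratio of -1.36 at day 5, the only member ratio of at least 1 in size. No replicate exists within a day.

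The early days 3, 5 and 7 were compared with the late days 14 and 28. Dsg2 had a mean log2 ratio of -0.89 early and -0.40 late, a difference of -0.49 (SE 0.31) that did not pass (limma adjusted p = 0.559). Dsc2 had -0.69 early and -0.52 late, a difference of -0.17 (SE 0.24, adjusted p = 0.795). The other 8 members had adjusted p-values of 0.651 to 0.943. This test called 0 of 16113 genes, a background of 0.0%, with 1766 genes at an unadjusted p under 0.05 and a lowest adjusted p of 0.191.

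The remaining genes of the same structures were described by lists. Of the 14 other connexins and pannexins that were tested, 1 was called higher, 2 lower and 11 did not pass, with a median mean log2 ratio of 0.14 against -0.03 for all genes, and with the brightest probe of each gene 2 were called higher. Panx1, which encodes the channel protein pannexin 1, was higher on all 5 days with a mean of 1.86 (limma adjusted p = 0.0116). Its normalized intensity was 101 to 221 in TAB and 36.0 to 52.4 in sham, so the size of the ratio rests on a dim sham signal. Gje1 and Panx3 were lower with -0.86 and -0.55. Gja4, which encodes an endothelial connexin, had 0.49 and narrowly missed the threshold (limma adjusted p = 0.0517). Of the 8 other desmosome and intermediate filament linker genes, 1 was called higher and 2 lower, with a median of -0.17. These were Des, encoding the muscle filament protein desmin, with 0.50, and the plaque genes Ppl (periplakin) and Pkp1 (plakophilin 1) with -1.20 and -0.91.

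Of the 17 other adherens junction genes, none was called higher and 1 was called lower, with a median of -0.08. This was Lmo7, encoding an actin-associated protein, with -0.67 (limma adjusted p = 0.0347). The catenin genes Ctnna1 and Ctnnb1 had -0.27 and -0.08 and did not pass. Of the 19 other genes whose proteins are found at the disc of cardiomyocytes, 5 were called higher, 3 lower and 11 not, with a median of 0.29, and with the brightest probe of each gene 2 were called lower. The actin-binding repeat protein gene Xirp2 had 1.43, the filamin gene Flnc 1.13 and the LUMA gene Tmem43 0.98, each higher on all 5 days, while Tmem65, encoding a membrane protein of the disc, had -0.98 and was lower on all 5.

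**Figure D4:**
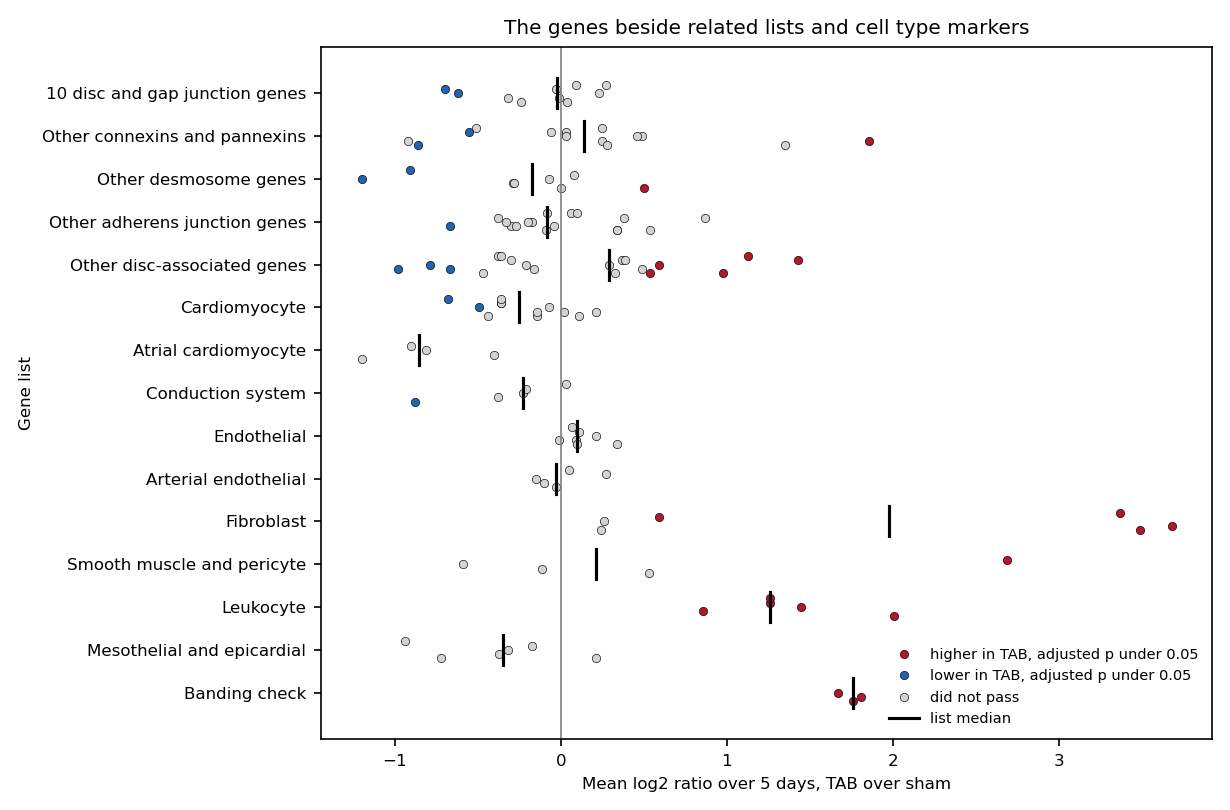
Mean log2 ratio over the 5 days, TAB over sham (horizontal axis), of each tested gene in the lists named on the vertical axis, with red for genes called higher, blue for genes called lower, grey for those that did not pass and a black line at each list's median. The 10 disc and gap junction genes have a median of -0.02 with 2 called lower, while the fibroblast and leukocyte markers have medians of 1.98 and 1.26.

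Markers of cell types differed between the groups. Of the 12 cardiomyocyte markers, 2 were called lower and none higher, with a median of -0.25, a share near the 17.1% of all genes called. These were Atp2a2, encoding the calcium pump of the sarcoplasmic reticulum, with -0.49, and the myoglobin gene Mb with -0.68, although the brightest of the 2 Mb probes gave -0.04. With the brightest probe of each gene, 1 was called lower and the median was -0.14. The summed cardiomyocyte markers were at 289000 to 306000 in TAB and 305000 to 329000 in sham, and Myl2 among them was at the top of the scanner range. The mean log2 ratios of Dsg2 and Dsc2, -0.70 and -0.62, were below those of all these markers but Mb, the next lowest being Atp2a2, and Dsg2 was below Mb as well. Those of Dsp and Gja1, 0.09 and 0.04, lay within the range of the markers, whose highest value was 0.21. Of the 6 fibroblast markers, 4 were called higher and none lower, with a summed intensity of 29400 to 47100 in TAB and 19800 to 23100 in sham. All 5 leukocyte markers were called higher, with 1910 to 4940 in TAB and 1160 to 1500 in sham. None of the 7 endothelial markers was called. Of the 4 smooth muscle markers, only Tagln was called higher. It was found on 4 TAB and 0 sham arrays, so that the size of its ratio is not well measured. None of the 6 mesothelial markers was called, although their sum of 215 to 293 in TAB was below that of 307 to 385 in sham. The part of these cell types in the lower Dsg2 and Dsc2 values was not tested.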

How the data were processed

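Left ventricular RNA of 10 samples was hybridised, in 1 colour (Cy5), to a mouse whole-genome oligonucleotide array. The authors deposited a background-subtracted intensity per probe and array, with a detection p-value and a spot flag. How the background was taken, how the p-values were computed and what the flags mean are not given in the sources used here, and a negative flag was read as a spot not found. The flag is a score of 2 levels.

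The intensities were brought to one median across arrays, 6447 probes that were under 1 on at least 1 array were left out, and quantile normalization over all arrays, with ranks set to their median, was followed by log2. These steps follow those of the study, with some differences. The study also averaged repeated data of a sample, and its counts of probes and genes kept differ slightly from those here. Its methods take the rank medians for each condition. Quantile normalization within each operation, which is closest to that wording, is among the alternatives and leaves Dsc2 as the only member called. Of several probes of a gene, that with the largest summed size of its daily log2 ratios represented it. This last rule favours probes with large ratios.

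TAB and sham were compared with limma 3.58.1 (lmFit and eBayes, R 4.3.3) over 16113 genes, with the day as a block, a threshold of 0.05 after Benjamini-Hochberg adjustment, and the early against late contrast from the same ratios. The number of arrays limits the precision. The scripts were tested on simulated data.

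The genes and lists were chosen with earlier results of these data known. The genes named were all members with every probe, and up to 4 called genes per list with the largest mean log2 ratio in size. Genes named beyond these, such as Gja4, Ctnna1, Ctnnb1, Myl7 and the neighbours of Dsg2, were added for context. The 3633 probes with no symbol were not named. Alternatives concerned the normalization, the offset, the filters, the probe choice, the block and each day left out, 17 in all.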

Additional observations from a re-analysis of the deposited data

How the results depend on the processing

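The mean log2 ratios of Dsg2 and Dsc2 stayed below 0 in all 17 alternatives. The count of members called lower, 2 as reported, was 1 with median scaling only and with quantile normalization within each operation, 0 with probes below 1 set to 1, and 0 to 1 without a day. Members called higher stayed at 0. The fit with no replicate block called the same 2 members, and samples of the same day deviated together with correlations of only -0.0165 to 0.113. Genes called higher and lower were 2242 and 2227 with 50 added before log2 and 459 and 218 with probes below 1 set to 1. Genes called lower were 1951 without the lowest tertile, 2032 over probes found on all arrays and 2064 with trend and robust settings. Without a day, genes called higher were 20 to 1482 and lower 1 to 1271, the fewest without day 7 and without day 3. The early against late test called 10 genes with 50 added, 7 without the lowest tertile, 18 over probes found on all arrays and 34 with trend and robust settings. Non-overlapping members lower in TAB numbered 1 with median scaling only and with quantile normalization within each operation. They numbered 3 without day 14 and 3 without day 28, and 1 member was higher without day 3. Members called on a day numbered 1 with 50 added and 1 when the threshold was a log2 size of 1. The share of all genes called under these settings is not given here, so neither count is a result about the members. The cause of these shifts was not tested.

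Values near 0 changed sign, none of them called. The mean log2 ratio of Jup was 0.057 with median scaling, 0.060 with quantile normalization within each operation and -0.065 to 0.040 without a day. That of Ctnna3 was 0.0012 with median scaling, 0.014 within each operation, 0.014 over probes found on all arrays and -0.066 to 0.039 without a day. Without a day, that of Dsp was -0.0015 to 0.14 and that of Gja1 -0.086 to 0.17. The early minus late difference of Cdh2 was 0.046 with median scaling and -0.18 to 0.028 without a day. That of Pkp2 was -0.023 with the mean of all probes, -0.16 with the brightest probe and -0.13 to 0.32 without a day. Without a day it was -0.066 to 0.22 for Dsp, -0.10 to 0.19 for Gjc1, -0.49 to 0.11 for Gja5 and -0.44 to 0.10 for Dsc2. Signals near background limit Dsc2, Jup, Gja5 and Ctnna3, and to a lesser degree Gjc1.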
